A study of Bos taurus with 5 samples.

Results

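Transcript levels of the 7 mitochondrially encoded subunits of complex I were examined in 5 single bovine blastocysts. The genes were ND1 (ENSBTAG00000043558), ND2 (ENSBTAG00000043571), ND3 (ENSBTAG00000043568), ND4L (ENSBTAG00000043559), ND4 (ENSBTAG00000043577), ND5 (ENSBTAG00000043563) and ND6 (ENSBTAG00000043546), out of 24616 annotated features in the table. All embryos belonged to a single group without treatment. They came from Holstein oocytes that were matured and fertilized in vitro with semen of a Holstein bull, were grown in KSOM medium with BSA and later serum, and were collected at day 7. Each embryo was freed of its zona pellucida, amplified, sequenced and quantified separately, so that the 5 values of a gene come from different embryos; whether these shared a culture drop was not stated. The labels give no sex, and the sex that the study inferred from expression was not used here. They list the ovary as the source and the blastocyst as the tissue. The table carries no gene names, so the labelled tissue could not be checked against marker genes.

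Complex I, or NADH dehydrogenase, is the entry point of electrons from NADH into the respiratory chain. It pumps protons across the inner mitochondrial membrane as it passes the electrons on to ubiquinone. The ND proteins are hydrophobic subunits of its membrane arm and form the core of its proton pumping part, while the subunits that bind NADH and carry the iron-sulfur clusters are encoded in the nucleus. The ND genes lie on the circular mitochondrial DNA (mtDNA) together with genes for subunits of other respiratory complexes. Nearly all of them are read from the same strand as a long precursor that is cut at the tRNA genes, and ND6 is the member read from the opposite strand. ND4L and ND4 overlap and stay together on a shared mRNA in mammals, as do ATP8 and ATP6. The early embryo inherits its mitochondria from the oocyte, and by the blastocyst stage it transcribes mtDNA actively.

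The members were found by their order among 37 consecutive features that make up the mtDNA, here the mtDNA run. In the RefSeq annotation of the bovine mtDNA, listed with the ARS-UCD2.0 assembly, 37 genes follow each other, with 13 protein genes between 22 tRNA and 2 rRNA genes. The 13 rows with values above 0 stood exactly at the places of the 13 protein genes, and the 24 rows at the places of tRNA and rRNA genes were listed at 0. These 0 values are entries of the table and do not show that such RNAs were absent. ND1, ND2, ND3, ND4L, ND4, ND5 and ND6 were places 6, 10, 25, 27, 28, 32 and 33 of the run. These positions are orders in the run and not coordinates.

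Gene lengths gave a second check of the names. An RPKM value (reads scaled to gene length and to mapped reads) is a whole number of reads divided by the gene length and the mapped reads of the embryo. When the RefSeq lengths were assigned in gene order, a single total of mapped reads between 15000000 and 40000000 turned all 13 values of an embryo into whole reads within the rounding of the table, and this held in each of the 5 embryos. With the totals found from the other 12 genes, the gene's own length gave whole reads in all embryos for all 13 genes, and none of the other 12 lengths did. The names of the ND genes therefore rest on order and on length together. The recovered totals of mapped reads were 25935031, 28019343, 29781827, 30145356 and 30715775 for blastocysts 1 to 5, a range of 1.18-fold.

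The ND genes were among the most abundant transcripts of the blastocyst, and the highest member, ND3, was 16.3-fold above the lowest, ND4L. ND3, ND5 and ND6 were highest, at mean values of 8432, 7462 and 6966 RPKM. ND4 followed at 4852 RPKM, ND1 and ND2 lay near each other at 2206 and 2109 RPKM, and ND4L was lowest at 512 RPKM. No feature outside the mtDNA run had a mean as high as that of ND3, ND4, ND5 or ND6. For ND1 and for ND2, 4 features outside the run were as high or higher by their mean, and for ND4L there were 43. In single embryos these numbers ran from 2 to 6 for ND1, from 1 to 10 for ND2, from 33 to 70 for ND4L and from 0 to 1 for ND4.

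ND3, a small subunit of the membrane arm next to the ubiquinone binding region, had 7220, 11828, 8312, 6078 and 8720 RPKM in blastocysts 1 to 5, with a mean of 8432 ± 2159 (SD, n = 5). It was the highest ND gene in every embryo, and blastocyst 2 stood above the others. Its rank among all features was 2 or 3 in each embryo.

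ND5, a large antiporter-like subunit at the far end of the membrane arm, had 6867, 10110, 7798, 5713 and 6821 RPKM in the same order, with a mean of 7462 ± 1655. Blastocyst 2 was again highest and blastocyst 4 lowest, while blastocysts 1 and 5 were nearly equal. ND5 ranked 3 or 4 among all features in each embryo. Because of its length it drew the most reads of the 7 genes, between 313637 and 515866 per embryo.

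ND6, a membrane arm subunit encoded on the opposite strand, had values of 5652, 10984, 7666, 4266 and 6262 RPKM, with a mean of 6966 ± 2557. The value of blastocyst 2 was 2.57 times that of blastocyst 4, the widest range of the 7 genes. Whether the counting used strand was not stated. Reads from ND6 and reads from precursor RNA of the other strand across this gene therefore cannot be told apart, and the values are those of the locus.

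ND4, another antiporter-like subunit, had 4577, 5973, 5576, 3627 and 4508 RPKM, with a mean of 4852 ± 932. Blastocysts 2 and 3 were high, blastocyst 4 was low, and the other two were nearly equal.

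ND1, which helps to form the ubiquinone binding site, had 2227, 2150, 2358, 1685 and 2610 RPKM, with a mean of 2206 ± 339. Blastocyst 5 was highest and blastocyst 4 lowest, and blastocyst 2 did not stand out. ND2, the third antiporter-like subunit, had 2021, 2823, 2667, 1183 and 1851 RPKM, with a mean of 2109 ± 662. Here blastocysts 2 and 3 lay above the rest and blastocyst 4 well below.

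ND4L, the smallest subunit of the set, had 366, 560, 614, 465 and 553 RPKM, with a mean of 512 ± 97.2. Its highest value, in blastocyst 3, was below the lowest value of every other ND gene in any embryo. It was also the member whose lowest value fell in blastocyst 1 and not in blastocyst 4. Its rank among all features ranged from 46 to 83.

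**Figure D1:**
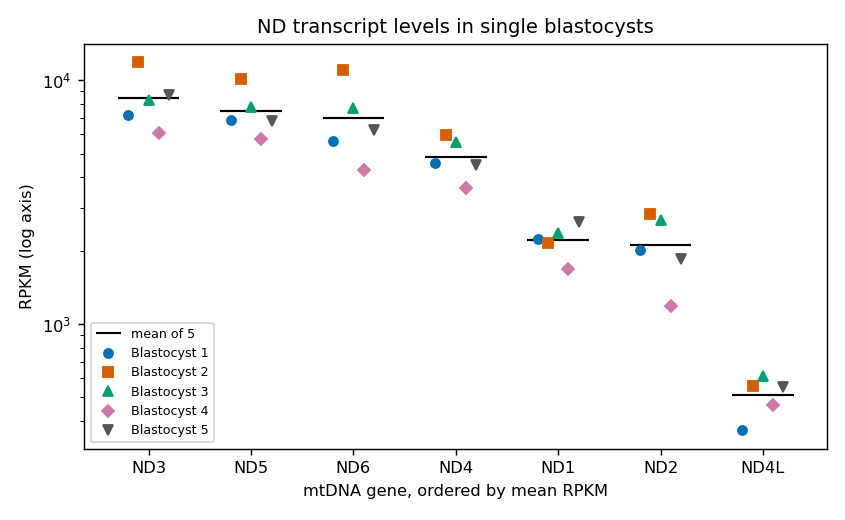
RPKM (log axis) of the 7 ND genes, ordered by mean, with a symbol for each of the 5 blastocysts and a line at the mean. ND3 lies at the top in every embryo and ND4L at the bottom, blastocyst 2 (squares) is highest for 5 genes, and blastocyst 4 (diamonds) is lowest for 6.

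Neighbouring genes in this order were compared within embryos on log2(RPKM + 0.1) values, with an exact two-sided sign-flip permutation test. With 5 embryos the smallest p this test can give is 0.0625, so no comparison could pass 0.05 by it. The pairs and the direction of their mean differences come from the order of the means in these same embryos, so the p-values are descriptions and do not allow for that choice. ND3 exceeded ND5 in 5 of 5 embryos, by a mean log2 difference of 0.17 ± 0.12 (SD), or 1.12-fold (exact permutation p = 0.0625, 0.0938 after Benjamini-Hochberg adjustment over 6 pairs). The differences of ND6 over ND4, ND4 over ND1 and ND2 over ND4L had the same p and also held in 5 of 5 embryos, at 1.39-fold, 2.19-fold and 4.00-fold. The order of the remaining neighbours changed from embryo to embryo. ND5 was above ND6 in 4 of 5 embryos, with a mean log2 difference of 0.15 ± 0.21 (exact permutation p = 0.188, adjusted 0.225). ND1 was above ND2 in 3 of 5 embryos, with a mean of 0.12 ± 0.40 (exact permutation p = 0.563, adjusted 0.563). The sizes of these small differences depended on single embryos. ND1 minus ND2 was 0.02 without blastocyst 4 or without blastocyst 5, 0.19 without blastocyst 3 and 0.24 without blastocyst 2, and ND5 minus ND6 was 0.08 without blastocyst 4. The mean RPKM of ND2 was above that of ND1 without blastocyst 4 (2340 against 2336) and without blastocyst 5 (2174 against 2105). When 30 bases were taken off each gene length, ND3 minus ND5 was 0.27 and ND5 minus ND6 was 0.09. In blastocysts 1, 4 and 5 the order was ND3, ND5, ND6, ND4, ND1, ND2 and ND4L. In blastocyst 3 ND2 changed places with ND1, and in blastocyst 2 both ND2 with ND1 and ND6 with ND5.

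The levels followed no simple gradient along the mtDNA. ND1 and ND2, which precede COX1 in the gene order, were lower than ND3, ND4, ND5 and ND6, which follow it, in every embryo. ND4L, which lies between ND3 and ND4, was far below both. ND3 was 16.3-fold above ND4L by the mean log2 difference, with a range from 13.1-fold to 21.1-fold. ND4, which shares its mRNA with ND4L, was 9.49-fold above it, with a range from 7.79-fold in blastocyst 4 to 12.5-fold in blastocyst 1.

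The ratio of ND4L to ND4 was 0.0801, 0.0937, 0.110, 0.128 and 0.123 in blastocysts 1 to 5, with a mean of 0.107 ± 0.0201 (SD, n = 5). For ATP8 and ATP6, which also overlap, the ratio was 0.825, 1.24, 1.15, 0.593 and 1.13, with a mean of 0.988 ± 0.270. The ratios of both gene sets did not overlap, and their log2 difference was -3.18 ± 0.57, below 0 in 5 of 5 embryos (exact two-sided sign-flip permutation p = 0.0625, the smallest possible). This comparison was not among those planned. ND4L was the lowest mtDNA protein gene in these same embryos, so the p-value is a description. If only the starts from which a trimmed read of 31 bases lies within the gene are counted (length minus 30), the ratio of ND4L to ND4 had a mean of 0.116. How reads in the overlap of both genes and reads with several matches in the genome were assigned was not stated, and the part of these steps and of the short gene length in the low values of ND4L was not tested.

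**Figure D2:**
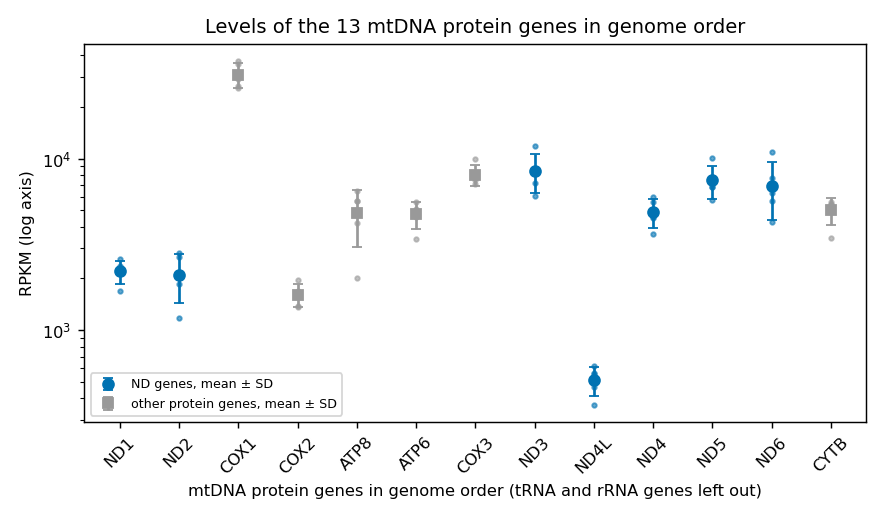
RPKM (log axis) of the 13 mtDNA protein genes in genome order, with the mean ± SD of the 5 embryos (large symbols) and each embryo (small points), for ND genes (blue circles) and other genes (grey squares). ND4L, at a mean of 512 RPKM, lies far below its neighbours ND3 and ND4, and COX1 lies above all other genes.

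Against the other 6 mtDNA protein genes, the ND genes were lower on average. The difference of the mean log2 values was -0.98, -0.59, -0.83, -0.84 and -0.89 in blastocysts 1 to 5, with a mean of -0.83 ± 0.14 (SD), below 0 in 5 of 5 embryos (exact two-sided sign-flip permutation p = 0.0625). The geometric mean was 3296 RPKM for the ND genes and 5845 RPKM for the others. This difference rested on few genes. It was -0.35 without COX1, the highest gene of all at a mean of 30842 ± 5184 RPKM, -0.37 without ND4L, and 0.10 without both, a setting chosen after the values were seen, where the direction turned (exact permutation p = 0.25). The difference of medians was -0.08.

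The summed RPKM of the ND genes was 28930, 44428, 34991, 23019 and 31324 in blastocysts 1 to 5, and the highest sum was 1.93 times the lowest. The ND genes held 9.98%, 13.6%, 11.6%, 8.45% and 11.0% of the summed RPKM of all features in these embryos, with a mean of 10.9% ± 1.91 (SD, n = 5). This sum takes the 24 mtDNA tRNA and rRNA genes at their listed 0. The study did find reads on mitochondrial rRNA, and the ND share would be lower with these counted. Of the summed RPKM of the 13 mtDNA protein genes they held 36.8% ± 2.90, from 33.05% in blastocyst 4 to 40.9% in blastocyst 2. COX1 alone held 35.4% ± 4.10 of that sum, and without COX1 the ND share was 57.1%. Within the ND sum, ND3 made up 25.9% ± 1.58, ND5 23.1% ± 1.21, ND6 20.9% ± 2.44 and ND4 15.1% ± 1.11, while ND1, ND2 and ND4L held 6.99% ± 1.33, 6.40% ± 0.957 and 1.61% ± 0.337. ND3, ND5 and ND6 together thus made up most of the sum. The share of ND6 was 24.7% in blastocyst 2 and at most 21.9% in the other embryos, and the share of ND1 was 4.84% in blastocyst 2 and at least 6.74% in the others.

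As a share of mapped reads, which are not divided by gene length, the ND genes held less. The study counted mitochondrial rRNA among its mapped reads. The table lists these genes at 0, so the recovered totals may include reads that no feature holds, and the shares would be higher without them. Recovered reads on the 7 genes numbered 742723 in blastocyst 1 (2.86% of mapped reads, 95% Wilson interval 2.857 to 2.870), 1168318 in blastocyst 2 (4.17%, 4.162 to 4.177), 1013249 in blastocyst 3 (3.40%, 3.396 to 3.409), 685514 in blastocyst 4 (2.27%, 2.269 to 2.279) and 907435 in blastocyst 5 (2.95%, 2.948 to 2.960). None of these intervals overlapped. They treat reads as independent draws, which reads from amplified cDNA are not, so they may be too narrow even for counting error. They do not measure the variation between embryos or libraries. The mean share was 3.13% ± 0.705 (SD, n = 5 embryos).

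In the values as deposited, the ND genes varied between embryos to different degrees, with ND1 the steadiest and ND6 the most variable. ND4L had the fewest reads, between 2823 and 5435 per embryo, and counting alone would give a coefficient of variation (CV, SD divided by the mean) of 1.50% at its mean read number, against 18.99% between embryos. For ND5 the CV from counting was 0.160%, against 22.2% between embryos. The noise of the amplification was not measured and is part of the spread between embryos. The CV between embryos was 15.4% for ND1, 19.2% for ND4, 25.6% for ND3, 31.4% for ND2 and 36.7% for ND6. The median over the 7 genes was 22.2%, against 17.1% for the other 6 mtDNA protein genes, 17.9% for the 100 highest features outside the mtDNA run and 35.3% for all 9476 features outside it with a mean of at least 0.4 RPKM. ND6 had a higher CV than 95 of those 100 highest features and ND2 than 92, while ND1 exceeded only 39 of them. A single embryo set part of these values and of their order. Without blastocyst 2 the CV was 15.6% for ND3, 17.4% for ND4, 12.5% for ND5 and 23.7% for ND6. ND1 was then at 17.6% and ND2 at 31.6%, so ND1 was not the steadiest and ND6 not the most variable. Without blastocyst 4 the CV was 8.63% for ND1 and 20.4% for ND2. Without blastocyst 1 it was 11.3% for ND4L, below the 17.8% of ND1. Quantile normalization lowered the CV to 5.73% for ND3, 7.98% for ND4, 2.71% for ND5 and 7.31% for ND6. ND1 was then at 11.7% and ND2 at 30.5%.

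All ND genes were low in blastocyst 4, and all but ND1 were high in blastocyst 2. The mean deviation of the 7 genes from their own log2 means was -0.14, 0.38, 0.19, -0.44 and 0.01 in blastocysts 1 to 5. The smaller of these values depended on the embryos included. The deviation of blastocyst 1 was -0.05 without blastocyst 2, -0.09 without blastocyst 3 and -0.25 without blastocyst 4, that of blastocyst 3 was 0.08 without blastocyst 4, and that of blastocyst 5 lay between -0.10 without blastocyst 4 and 0.11 without blastocyst 2. In blastocyst 4 the single deviations ran from -0.11 for ND4L to -0.77 for ND2, and 6 genes had their lowest value there. In blastocyst 3 all 7 were above their log2 mean, ND3 by only 0.02. Blastocyst 2 held the highest value of 5 ND genes, blastocyst 3 that of ND4L and blastocyst 5 that of ND1. Of the other 6 mtDNA protein genes, 50% were highest in blastocyst 2 and 66.7% were lowest in blastocyst 4. Of the 9476 features outside the run, 19.02% were highest in blastocyst 2 and 12.5% were lowest in blastocyst 4. Among the 100 highest features outside the run, these shares were 42% and 29%.

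The median of the other features did not move in this way. The median deviation of the 9476 features outside the run was between -0.08 and 0.07 in all embryos, with -0.04 in blastocyst 2 and 0.05 in blastocyst 4. The median deviation of the 100 highest features was 0.12 in blastocyst 2 and -0.06 in blastocyst 4. Rescaling every embryo to the same median of expressed features left the ND deviation at 0.40 in blastocyst 2 and -0.45 in blastocyst 4, and scaling to the same sum of RPKM outside the mtDNA run left it at 0.31 and -0.40. Quantile normalization, which gives the same values to the same ranks in all embryos, reduced it to 0.08 and -0.11, and blastocyst 3 was then highest at 0.15. The other 6 mtDNA protein genes deviated by 0.15 in blastocyst 2 and -0.42 in blastocyst 4 on average. The mean of the other genes in blastocyst 4 was drawn down by ATP8, at -1.14, while COX1 was at -0.06, COX3 at -0.16, COX2 at -0.21, ATP6 at -0.45 and CYTB at -0.51. Whether the ND genes and the other mtDNA genes differed in these deviations was not tested. As each library is a whole embryo, fewer cells rich in mitochondrial RNA and less of this RNA per cell cannot be told apart.

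**Figure D3:**
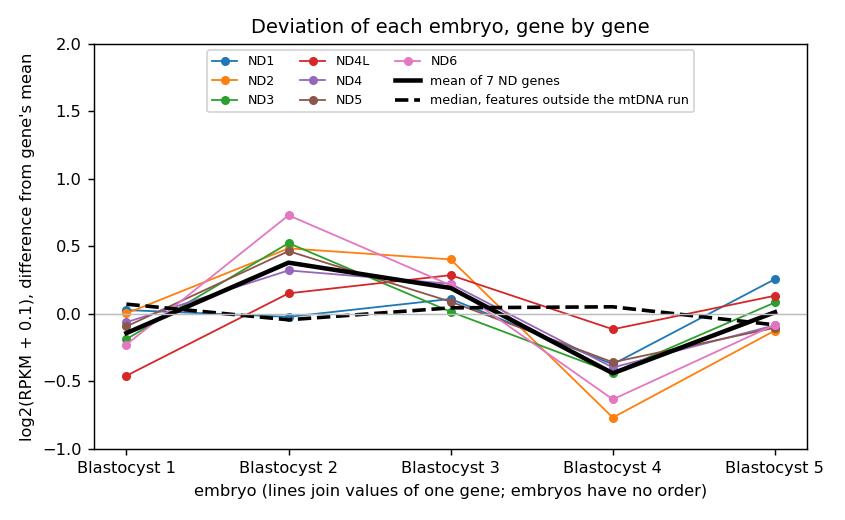
Difference of log2(RPKM + 0.1) from the mean of each gene over the 5 embryos, for each ND gene (thin lines), their mean (thick line) and the median of 9476 features outside the mtDNA run (dashed line); the embryos have no order, and the lines only join the values of a gene. All ND genes lie below 0 in blastocyst 4 and all but ND1 lie above 0 in blastocyst 2, while the dashed line runs from -0.08 to 0.07.

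The ND genes did not all move together to the same degree. The SD of the log2 ratio over the 5 embryos was smallest for ND5 and ND4, at 0.10, where ND5 was 1.40-fold to 1.69-fold above ND4. The ratio of ND3 to ND5 was next, with an SD of 0.12, and that of ND3 to ND4 had an SD of 0.18. At the other end, the ratio of ND2 to ND4L had an SD of 0.46 and ranged from 2.54-fold to 5.51-fold. The ratio of ND6 to ND1 had an SD of 0.45, with 5.11-fold in blastocyst 2 and between 2.40-fold and 3.25-fold in the others. Over all 21 ratios of ND genes the median SD was 0.28, against 0.34 for the 15 ratios among the other mtDNA protein genes and 0.34 for the 42 ratios between both sets. The 2 genes at the start of the gene order, ND1 and ND2, did not keep a fixed ratio, which was 1.10, 0.762, 0.884, 1.42 and 1.41 in blastocysts 1 to 5.

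**Figure D4:**
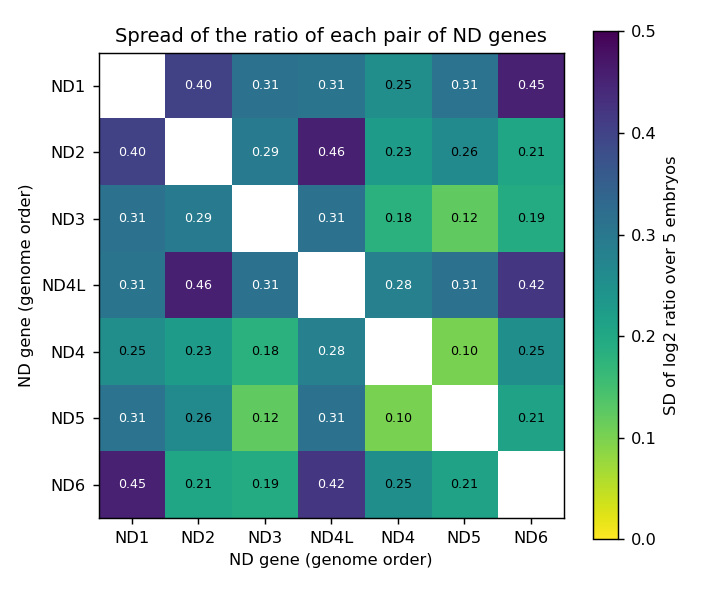
SD over the 5 embryos of the log2 ratio of each pair of ND genes, as a colour and a number (0 would mean a fixed ratio). ND3, ND4 and ND5 form the steadiest ratios, between 0.10 and 0.18, and the 4 widest, ND2 with ND4L, ND6 with ND1, ND6 with ND4L and ND1 with ND2, lie between 0.40 and 0.46.

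By the root mean square difference of the deviations over the 5 embryos, ND4 was closest to the mean of the other 6 ND genes, at 0.08 on the log2 scale, followed by ND5 at 0.10 and ND3 at 0.13. ND6 and ND2 were at 0.22 and 0.24, and ND1 and ND4L were farthest, at 0.27 and 0.28. The same measure was taken between the mean of all 7 ND genes and each of the 2904 features outside the run with a mean of at least 10 RPKM. Their median difference was 0.41, and 121 of them lay within 0.2 and 5 within 0.1. Of the other mtDNA protein genes, CYTB at 0.16 and COX3 at 0.18 lay within 0.2. Although the ND genes contribute to the mean, 212 features outside the run were nearer to it than ND1, 130 were nearer than ND2 and 243 were nearer than ND4L. For ND6 this number was 91, for ND3 9, for ND5 3 and for ND4 1. The nearest was ENSBTAG00000021932, with a difference of 0.07 and 90.2, 126, 108, 78.5 and 94.6 RPKM in blastocysts 1 to 5. It was followed by ENSBTAG00000004489, with a mean of 12.5 ± 2.76 RPKM, and ENSBTAG00000047673, with a mean of 23.8 ± 4.39 RPKM, both at a difference of 0.08. With 5 embryos such likeness is a description, and the gene names behind these identifiers were not determined.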

How the data were processed

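RNA-seq libraries of 5 single day 7 bovine blastocysts were analysed. Single reads of 40 bp were trimmed by 9 bases at the 5′ end and aligned to UMD3.1 (Ensembl genes) in CLC Genomics Workbench by the authors, who deposited RPKM values per feature and embryo, rounded to 3 decimals. Every column belonged to an embryo. Count models do not suit such values and were left out, and the table was used without further normalization. None of the 24616 identifiers matched the RefSeq gene table (matches: 0), so planned lists of nuclear complex I subunits, assembly factors, mtDNA expression factors and cell markers were not analysed, and no sequences were used. Of the RefSeq table, the order, names and lengths of mtDNA genes were used.

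Mapped reads per embryo were recovered by a search over totals from 15000000 to 40000000 reads that gave whole reads for all 13 mtDNA protein genes, and the steps were tested on simulated data. Levels of RPKM were compared on log2(RPKM + 0.1) values by exact sign-flip permutation tests within embryos. No groups of embryos were compared. All 7 ND genes are named, and other features by their likeness to the ND genes (the nearest 3). The members and lists were chosen with earlier results of these data known. Alternatives covered scaling, pseudocount, gene length, genes included and omission of each embryo. Python 3.11.15, numpy 2.4.6, pandas 2.3.3, scipy 1.17.1 and matplotlib 3.10.9 were used.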

Additional observations from a re-analysis of the deposited data

How the results depend on the processing

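The mean levels of the 7 ND genes moved by less than the SD between embryos under every scaling, gene length and omission of an embryo tried. The direction of each difference between neighbouring genes, taken within embryos, held under all alternatives run for it. With length minus 30 bases, however, ND3 minus ND5 went from 0.17 to 0.27 and ND5 minus ND6 from 0.15 to 0.09. The order of the mean RPKM of ND1 and ND2 turned, with ND1 at 2336 and ND2 at 2340 without blastocyst 4. It also turned without blastocyst 5 (2105 and 2174) and under quantile normalization (2139 and 2188). The settings with gene length minus 30 bases and those without ND6 or ND4L were added after the data were seen. The ND share of the summed RPKM, 10.9%, became 3.13% as a share of mapped reads, where both the length scaling and the total differ, and the share of the 13 mtDNA protein genes, 36.8%, became 32.3% in reads, which are not divided by gene length. Without COX1 the RPKM share of 36.8% was 57.1%. The log2 difference between the ND genes and the other mtDNA genes, -0.83, reversed to 0.10 without ND4L and COX1 together. Quantile normalization brought the deviation of blastocyst 4 from -0.44 to -0.11 and that of blastocyst 2 from 0.38 to 0.08, below the 0.15 of blastocyst 3, because it assigns the same values to the highest ranks in all embryos, and lowered the CV of ND3, ND4, ND5 and ND6 for the same reason. Rescaling to the same median moved blastocyst 1 from -0.14 to -0.22 and blastocyst 5 from 0.01 to 0.13, and scaling to the sum outside the mtDNA run moved blastocyst 5 to 0.04. The small deviation of blastocyst 5, 0.01, turned below 0 under quantile normalization and without blastocyst 1 or 4. With 5 embryos of a single group, the sign-flip test could not reach a p of 0.05.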

Other observations

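Of 21 measures compared between the embryos (the RPKM of each ND gene, its share of the ND sum, the joint shares, the difference from the other mtDNA genes and 3 ratios), 0 had an embryo whose gap to its neighbour exceeded 0.71 of the range, where about 1.05 would pass by chance. The highest ratio of gap to range, 0.611, was that of blastocyst 2 in the difference between the ND genes and the other mtDNA protein genes.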
